A study of Rattus norvegicus with 6 samples.

Results

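Lysosome genes were compared between INS-1E cells kept with uric acid (UA) for 24 hours (3 libraries) and untreated INS-1E cells (3 libraries). INS-1E is a rat insulinoma line that secretes insulin and serves as a model of the beta cell, and all libraries are of this single line. The labels give neither the dose of uric acid nor a vehicle for the untreated cells, and nothing in them states that replicates came from separate cultures. The p-values therefore reflect variation among 6 libraries that may be technical. The members are the features that the deposited table places in the KEGG pathway Lysosome, together with all genes whose symbol begins with Atp6v or Atp6ap, the proton pump and its accessory proteins. They number 126 of the 19289 listed features: 110 through the pathway and 16 through the symbol alone. By symbol they were divided into 48 hydrolases with their activators, 22 membrane proteins and carriers, 31 sorting and adaptor genes, and 23 proton pump genes. A further 2 features had no role by symbol. Of the 126, 107 had a mean of at least 1 FPKM (fragments scaled to transcript length and library size) and were tested.

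The lysosome is the acidic compartment in which cells break down proteins, glycans, lipids and nucleic acids delivered by endocytosis and autophagy. Its hydrolases are tagged with mannose phosphate in the Golgi and sorted by receptors, adaptors and clathrin. The V-ATPase, a rotary pump with a membrane sector (V0) and a cytosolic sector (V1), acidifies it, and membrane carriers export the products of digestion. Many lysosome genes carry an E-box in the promoter, bound by the transcription factors TFEB and TFE3, which enter the nucleus when the nutrient-sensing kinase complex mTORC1 is inactive. In beta cells the pump also acidifies the insulin granule, and lysosomes degrade surplus granules.

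The libraries held between 41191819 and 59092982 estimated counts, and 2.06, 2.17 and 2.06% of them fell on lysosome members in uric acid libraries 1, 2 and 3, against 2.01, 2.02 and 2.01% in untreated libraries 1, 2 and 3. Markers matched the label of a beta-cell line: Ins1 averaged 49800 FPKM in uric acid libraries and 48700 FPKM in untreated libraries, and Pdx1 averaged 233 FPKM with uric acid and 278 FPKM untreated. The 7 listed macrophage markers, of cells rich in lysosomes, together summed to 0.308, 0.423 and 1.97 FPKM in the uric acid libraries and 1.3, 0.382 and 0.831 FPKM in the untreated libraries. Tyrobp, a signalling adaptor that marks myeloid cells, was listed at 0 in uric acid libraries 1 and 2 and in every untreated library. In a bulk sample a change in the number of cells of a kind and a change in RNA per cell cannot be told apart.

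With uric acid, 4 lysosome genes were higher and none was lower. Arsg, a sulfatase that takes part in the breakdown of heparan sulfate, and Ctns, the carrier (cystinosin) that exports cystine from the lysosome, nearly doubled. Npc1, which exports cholesterol, and Ctsa, a carboxypeptidase that also shields other hydrolases, rose 1.25-fold and 1.22-fold. The remaining 103 tested members did not pass an adjusted p under 0.05 (edgeR quasi-likelihood test, Benjamini-Hochberg over all 12460 tested features). The 4 are 3.74% of the tested members, while 4.99% of all tested features were called higher, 2.99% lower and 7.98% in either direction. The share called higher was thus near the background. The share called in either direction was below it, as no member was called lower. At an unadjusted p under 0.05, 15 members were higher and 5 lower, together 18.7% of those tested, against 25.7% of all tested features. DESeq2 called 8 members higher and 2 lower, where it called 972 and 793 of all tested features. With either pseudocount, limma called 3 members higher and none lower.

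Arsg had 8.52, 9.95 and 8.04 FPKM in uric acid libraries 1, 2 and 3, against 4.46, 4.51 and 4.7 FPKM in untreated libraries 1, 2 and 3. The groups lay far apart, and the spread was wider with uric acid (SD 0.993, n = 3) than without (SD 0.127, n = 3). The log2 fold change was 0.95 ± 0.10 (SE), a 1.94-fold rise (adjusted p = 0.000962), and it passed in every alternative, with an adjusted p of at most 0.011. Arsg (ENSRNOG00000003931) lies on chromosome 10 from 97771264 to 97863311 and overlaps Wipi1, an autophagy gene on the other strand, and no source used here states the counting strand or the build of the coordinates. Wipi1 had 13.6, 12.9 and 14.1 FPKM with uric acid and 9.89, 9.2 and 10.1 FPKM untreated, a log2 fold change of 0.47 (adjusted p = 0.0176), with an adjusted p of 0.0731 without uric acid library 1, and 0.0614 and 0.103 without untreated library 1 and 2. The part of Wipi1 reads in the Arsg values was not tested.

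Ctns had 20.3, 22.1 and 18.1 FPKM in uric acid libraries 1, 2 and 3, against 10.5, 11.2 and 10.9 FPKM in untreated libraries 1, 2 and 3. Every uric acid library lay well above every untreated library. Ctns (ENSRNOG00000028688, chromosome 10 from 59749256 to 59764868) overlaps no other tested feature. Its log2 fold change was 0.89 ± 0.09, a 1.86-fold rise (adjusted p = 0.00113), and its adjusted p was at most 0.0117 in every alternative.

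Npc1 had 8.54, 8.43 and 8.69 FPKM with uric acid and 7.06, 7.1 and 6.34 FPKM untreated, a 1.25-fold rise (log2 fold change 0.32 ± 0.07, adjusted p = 0.0334). The uric acid libraries were nearly equal to each other, and all lay above the untreated libraries. Npc1 (ENSRNOG00000012016, chromosome 18 from 3616878 to 3662683) overlaps Rmc1 on the other strand, which stood at a log2 fold change of 0.09. Ctsa had 138, 158 and 146 FPKM with uric acid and 122, 119 and 120 FPKM untreated, a rise of 22.5% (0.29 ± 0.07, adjusted p = 0.0359). Here too the groups did not overlap. Ctsa (ENSRNOG00000015857, chromosome 3 from 161298962 to 161304625) overlaps Neurl2 on the other strand, at 0.25 (adjusted p = 0.255). With single libraries left out, the adjusted p of Ctsa was 0.0584 without uric acid library 1, 0.0555 without uric acid library 2, and 0.0939, 0.165 and 0.087 without untreated library 1, 2 and 3. That of Npc1 was 0.109 without uric acid library 1, 0.0516 without uric acid library 3, and 0.0813, 0.117 and 0.0986 without untreated library 1, 2 and 3. Npc1 also missed the threshold in limma on log2(FPKM + 1) (0.0715) and log2(FPKM + 0.1) (0.0702), and with every feature of mean FPKM above 0 tested (0.0558).

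**Figure D1:**
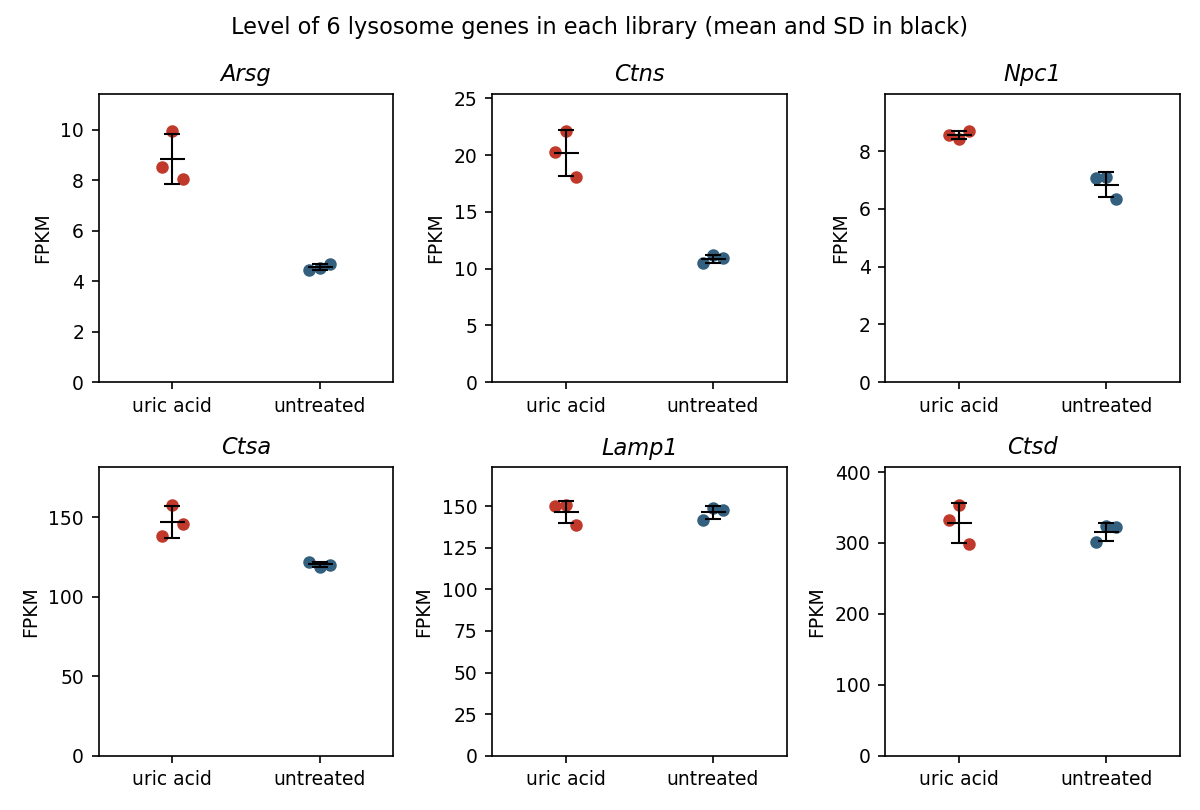
FPKM in each library for the 4 lysosome genes called higher and for the markers Lamp1 and Ctsd, with uric acid on the left and untreated on the right. Points are libraries and black bars the mean and SD (n = 3). The groups are separate for Arsg, Ctns, Npc1 and Ctsa and overlap for Lamp1 and Ctsd.

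Promoter sequences were taken from RefSeq (build GRCr8), which gives a window of 250 bases before and 50 after the start of transcription for 100 of the 126 members. This is 79.4%, fewer than the 80% needed for a check over the list, so that check is void and only single promoters are described. The letters TCACGTGA, the E-box form common in lysosome genes, are found in either direction in 0.777% of all 33469 promoter windows, and the shorter CACGTG that lies within it in 6.42%. TGATGNAAT, the composite site of ATF4 and C/EBP factors, is found in 1.09% of windows. The 250 bases before the start are shown for the markers Lamp1 and Ctsd, for Cln3 and Galc, and for Ctns and Arsg. The windows of Lamp1, Ctsd, Cln3 and Galc hold the 8-letter form. Cln3 and Galc (log2 fold change 0.35 each) have the largest values among members with that form. Others with it, such as Igf2r (-0.07), Atp6v0d1 (0.03), Cd164 (0.09), Gnptg (0.16) and Sumf1 (0.10), are not shown. Ctns and Arsg rose most, and their windows hold none of these letters. The same is true of Npc1 and Ctsa, which are not shown. For each gene only the first listed window was used, while the shares are over all windows. Other starts of the same gene, where listed, were not described. Capitals mark TCACGTGA or, outside it, CACGTG. In Lamp1 the 8-letter form begins 66 and 39 bases before the start, in Ctsd 11, in Cln3 39 and in Galc 21 bases before it.
Lamp1 (chr16:83075064-83075313, minus strand): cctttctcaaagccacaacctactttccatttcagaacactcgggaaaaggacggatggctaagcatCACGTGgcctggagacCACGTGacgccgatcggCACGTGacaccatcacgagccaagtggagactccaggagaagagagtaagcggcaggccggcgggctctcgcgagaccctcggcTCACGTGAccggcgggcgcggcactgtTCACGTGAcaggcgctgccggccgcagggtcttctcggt
Ctsd (chr1:206968822-206969071, minus strand): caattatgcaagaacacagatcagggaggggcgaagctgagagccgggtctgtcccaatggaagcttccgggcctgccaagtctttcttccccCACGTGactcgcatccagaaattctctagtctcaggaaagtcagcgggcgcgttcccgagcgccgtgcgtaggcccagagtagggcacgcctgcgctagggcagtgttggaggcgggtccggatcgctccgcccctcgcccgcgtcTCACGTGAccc
Cln3 (chr1:190597930-190598179, minus strand): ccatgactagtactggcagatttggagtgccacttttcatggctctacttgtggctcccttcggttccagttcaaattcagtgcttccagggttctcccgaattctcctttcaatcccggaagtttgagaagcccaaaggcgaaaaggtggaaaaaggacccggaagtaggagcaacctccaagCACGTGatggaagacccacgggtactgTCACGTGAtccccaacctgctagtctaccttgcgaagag
Galc (chr6:123245560-123245809, minus strand): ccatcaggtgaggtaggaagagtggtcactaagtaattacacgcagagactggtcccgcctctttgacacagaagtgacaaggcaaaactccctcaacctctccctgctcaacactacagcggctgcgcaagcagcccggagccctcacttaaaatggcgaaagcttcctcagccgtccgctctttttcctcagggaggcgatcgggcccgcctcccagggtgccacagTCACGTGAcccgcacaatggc
Ctns (chr10:58315633-58315882, minus strand): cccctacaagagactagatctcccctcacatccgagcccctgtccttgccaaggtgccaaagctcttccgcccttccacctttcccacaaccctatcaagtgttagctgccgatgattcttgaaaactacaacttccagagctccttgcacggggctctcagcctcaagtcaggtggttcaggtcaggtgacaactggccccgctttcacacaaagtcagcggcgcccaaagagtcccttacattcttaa
Arsg (chr10:94963130-94963379, plus strand): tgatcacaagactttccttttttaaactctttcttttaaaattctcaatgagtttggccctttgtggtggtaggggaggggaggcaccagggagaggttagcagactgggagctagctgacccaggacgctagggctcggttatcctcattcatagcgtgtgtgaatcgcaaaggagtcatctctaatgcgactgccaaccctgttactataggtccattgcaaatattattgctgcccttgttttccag

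Among hydrolases the calls were Arsg and Ctsa. Of 38 tested, 2 rose and none fell, a share of 5.26% higher, near the 4.99% of all tested features. At an unadjusted p under 0.05, 7 were higher and 1 lower, where all tested features gave 25.7% in either direction. The median log2 fold change was 0.05, against 0.00 over all tested features, and 0.01 without uric acid library 2. The most abundant was Psap, the precursor of the saposins that help lipid hydrolases. It had 401, 404 and 406 FPKM with uric acid and 380, 394 and 388 FPKM untreated, and although the groups did not overlap the difference was 4.21% (adjusted p = 0.522). Ctsd, the main aspartic protease, had 333, 354 and 298 FPKM with uric acid and 301, 324 and 322 FPKM untreated. These groups overlapped, and the 95% interval of the log2 fold change ran from -0.11 to 0.23 (adjusted p = 0.678). Gaa, which digests glycogen, averaged 307 ± 15.2 FPKM with uric acid and 295 ± 3.18 FPKM untreated (SD, n = 3 each; log2 fold change 0.05, adjusted p = 0.617).

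Hexa, the alpha chain of beta-hexosaminidase A, came closest to the threshold among the uncalled hydrolases. It had 120, 132 and 130 FPKM with uric acid and 107, 105 and 111 FPKM untreated (log2 fold change 0.24 ± 0.07, adjusted p = 0.0617). The groups did not overlap, as was also true of the protease Ctsf (0.22, adjusted p = 0.078), the fucosidase Fuca1 (0.23, adjusted p = 0.136), the iduronidase Idua (0.18, adjusted p = 0.186) and the galactosylceramidase Galc (0.35, adjusted p = 0.13). In the other direction Gla, alpha-galactosidase A, averaged 29.8 ± 1.77 FPKM with uric acid and 34.0 ± 0.712 FPKM untreated (log2 fold change -0.19, adjusted p = 0.145). In all, 9 hydrolases had every uric acid library above every untreated library and 2 had every one below, where the background of such separation is 16.8% of tested features above and 14.2% below. Summed over all 48 hydrolases the level was 2720, 2890 and 2640 FPKM with uric acid and 2570, 2630 and 2570 FPKM untreated, without overlap.

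Membrane proteins gave the 2 calls of Ctns and Npc1 among 18 tested. This is 11.1% higher, where all tested features gave 4.99%, and the count is small. The median log2 fold change of the 18 was 0.10, and it was 0.04 without uric acid library 2 and 0.06 without untreated library 1. Lamp1, a main glycoprotein of the lysosomal membrane, had 150, 151 and 139 FPKM with uric acid and 142, 149 and 148 FPKM untreated. The groups overlapped closely, with a log2 interval from -0.14 to 0.14. Lamp2, its relative that also serves chaperone-mediated autophagy, had 159, 178 and 159 FPKM with uric acid and 156, 145 and 152 FPKM untreated, without overlap (0.13, adjusted p = 0.282). Cd63, a tetraspanin of late endosomes and the most abundant member, had 1090, 1460 and 1040 FPKM with uric acid and 1070, 994 and 1020 FPKM untreated. Only uric acid library 2 stood apart for Cd63, and the log2 fold change was 0.22 ± 0.12 (adjusted p = 0.29). Cd164, a sialomucin, averaged 366 ± 19.4 FPKM with uric acid and 343 ± 11.1 FPKM untreated (adjusted p = 0.382).

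The genes listed by symbol as carriers or channels, Npc2 among them, held both calls of the membrane group. Over all tested features 4.99% were called higher and 16.8% were separate upwards. The 10 tested carriers or channels are too few to set a share against these. Of the 10, 5 had every uric acid library above every untreated library. Besides Ctns and Npc1 these were Cln3, a membrane protein mutated in juvenile Batten disease, Mcoln1, the calcium channel of the lysosome, and Slc17a5, the sialic acid exporter. Cln3 had 15.7, 19.0 and 15.8 FPKM with uric acid and 11.8, 14.0 and 13.9 FPKM untreated (0.35 ± 0.12, adjusted p = 0.103). Mcoln1 had 45.8, 49.2 and 46.3 FPKM with uric acid and 41.3, 43.3 and 41.5 FPKM untreated (0.16 ± 0.06, adjusted p = 0.152). Neither passed the threshold. Slc11a2, which carries iron, lay lower with uric acid in all libraries, at -0.12 (adjusted p = 0.333). Summed over the 10 tested genes so listed, Npc2 included, and the 1 too low to test, the level was 188, 191 and 185 FPKM with uric acid. It was 164, 177 and 166 FPKM untreated.

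**Figure D2:**
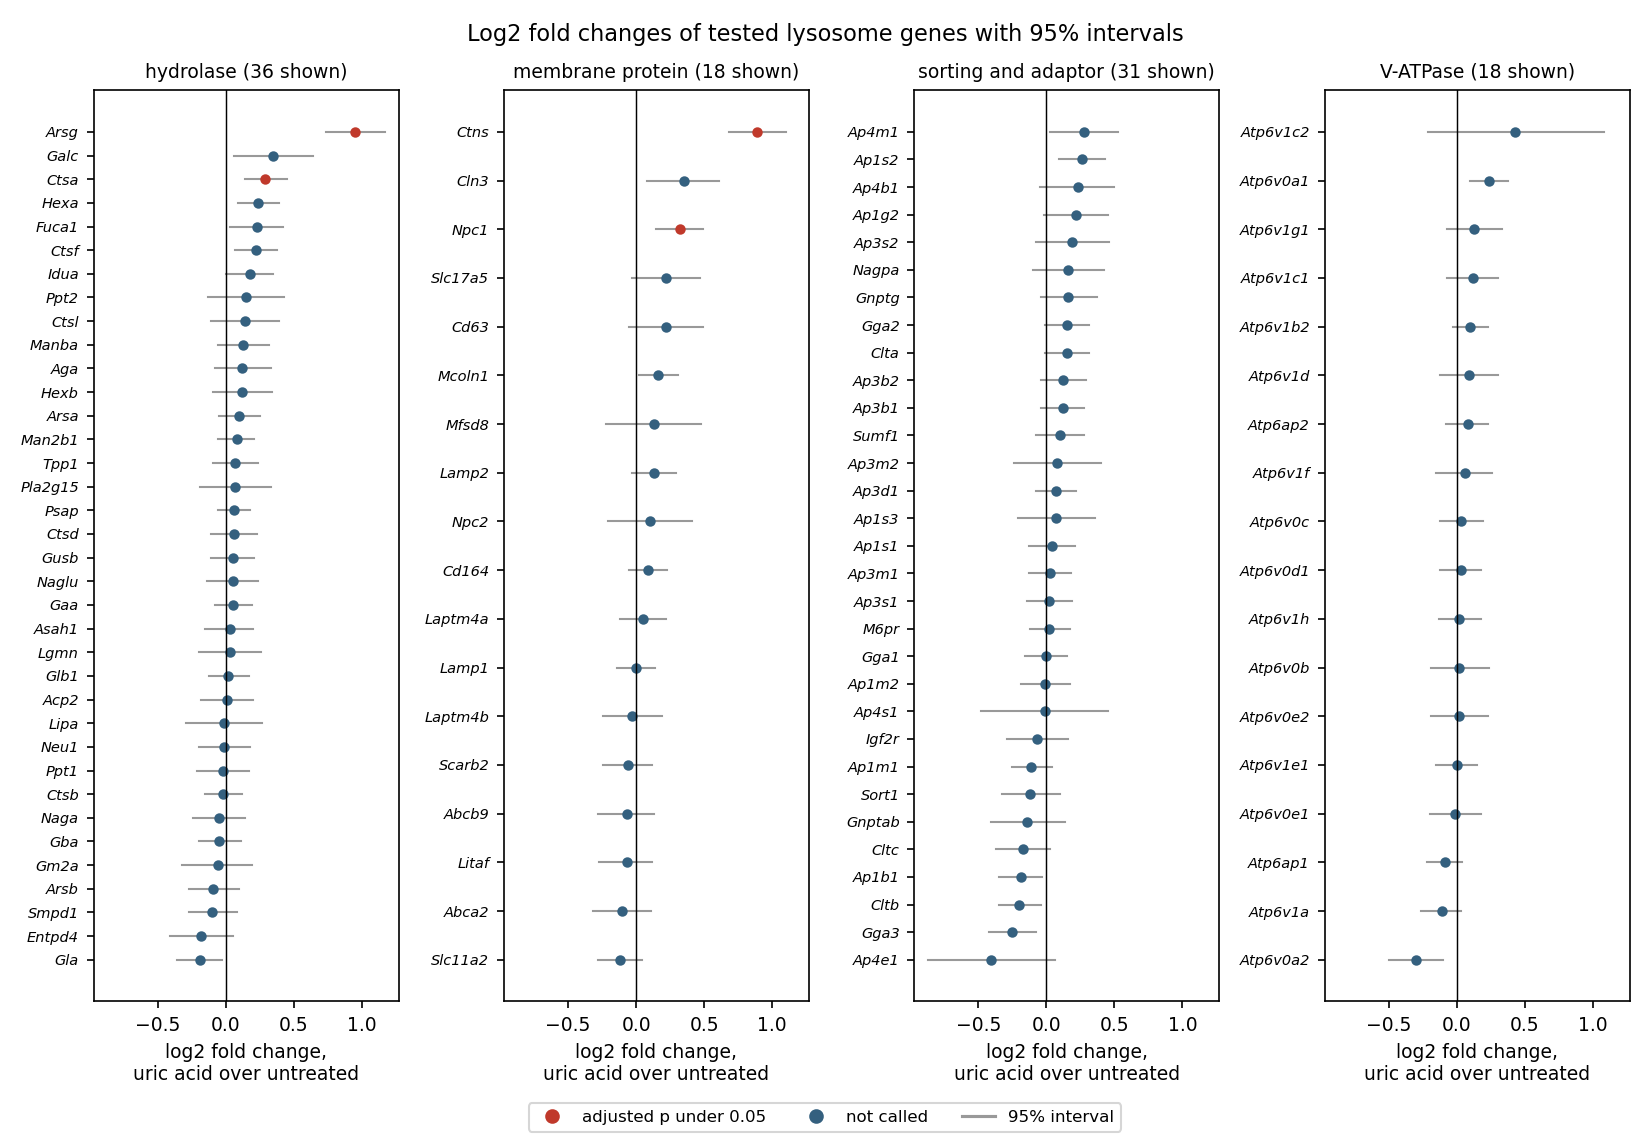
Log2 fold change (uric acid over untreated, horizontal axis) of tested hydrolases, membrane proteins, sorting or adaptor genes and V-ATPase genes whose symbol is listed once, with the 95% interval from edgeR as a grey line. Red marks an adjusted p under 0.05, and only Arsg, Ctsa, Ctns and Npc1 are red, while most other intervals cross 0.

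None of the 31 tested sorting and adaptor genes passed the threshold (5 at an unadjusted p under 0.05, where all features gave 25.7%), and their median was 0.04. DESeq2 called 1 higher and 1 lower, where it called 972 and 793 of all tested features. The clathrin light chains lay on opposite sides of their untreated levels. Clta had 201, 216 and 194 FPKM with uric acid and 172, 187 and 191 FPKM untreated (0.15, adjusted p = 0.23). Cltb had 210, 201 and 198 FPKM with uric acid and 217, 237 and 244 FPKM untreated (-0.20, adjusted p = 0.11). Neither pair of groups overlapped, in opposite directions, and the difference between the genes was not tested. The heavy chain Cltc averaged 83.1 ± 7.14 FPKM with uric acid and 93.6 ± 10.1 FPKM untreated, with overlap (-0.17, adjusted p = 0.265).

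Ap1s2, a small subunit of the AP-1 adaptor, had 83.6, 82.8 and 84.6 FPKM with uric acid and 73.2, 62.7 and 73.5 FPKM untreated (0.26 ± 0.08, adjusted p = 0.0721). Gga3, an adaptor for the mannose phosphate receptors, had 6.64, 6.59 and 7.1 FPKM with uric acid and 8.09, 7.96 and 8.17 FPKM untreated (-0.25 ± 0.07, adjusted p = 0.0712). Both were separate between groups and missed the threshold. Gga3 overlaps Mrps7, a gene of the mitochondrial ribosome, on the other strand (-0.17). Igf2r, the large receptor of mannose phosphate, stood at -0.07 and Gnptg, a subunit of the enzyme that makes the tag, at 0.16. The small receptor is listed as M6pr on chromosome X (0.02) and as LOC100909548 on chromosome 4 (-0.10), and reads of these copies may be split between them. The other feature without a role by symbol, Atp6v1fnb, is a neighbour of Atp6v1f and no pump subunit by its name. It had 2.86, 2.59 and 3.4 FPKM with uric acid and 2.05, 1.73 and 1.8 FPKM untreated (0.66 ± 0.21, adjusted p = 0.091).

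None of the 18 tested proton pump genes was called. At an unadjusted p under 0.05 there were 2, where all tested features gave 25.7%. DESeq2 called 1 higher and 1 lower, where it called 972 and 793 of all tested features. When only features of a mean FPKM of at least 5 were tested, edgeR called 1 higher, where all features gave 604 higher and 325 lower. The 95% interval included 0 for 16 of the 18. The median was 0.03, with values of 0.00 without untreated library 1, 0.01 without uric acid library 2, 0.05 when uric acid library 1 or untreated library 2 was left out, and 0.07 when library 3 of either group was. Summed over all 23 pump genes the level was 2040, 2140 and 1950 FPKM with uric acid and 1900, 2020 and 2040 FPKM untreated, with overlap. Atp6v0c, the proteolipid of the rotating ring, had 534, 565 and 522 FPKM with uric acid and 502, 520 and 559 FPKM untreated, with a log2 interval from -0.12 to 0.19. Atp6v0b, a ring relative, averaged 228 ± 30.0 FPKM with uric acid and 225 ± 9.85 FPKM untreated, and Atp6v1f, a V1 subunit, 195 ± 16.7 FPKM with uric acid and 188 ± 16.3 FPKM untreated (SD, n = 3 each). The catalytic subunit gene Atp6v1a stood at -0.11 (interval -0.26 to 0.03) and its partner Atp6v1b2 at 0.10 (interval -0.03 to 0.23). The groups did not overlap for Atp6v1b2, at 136, 137 and 141 FPKM with uric acid and 125, 132 and 128 FPKM untreated. The same held, lower with uric acid, for the accessory gene Atp6ap1, at 157, 154 and 149 FPKM with uric acid and 162, 169 and 160 FPKM untreated (-0.09, adjusted p = 0.338).

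**Figure D3:**
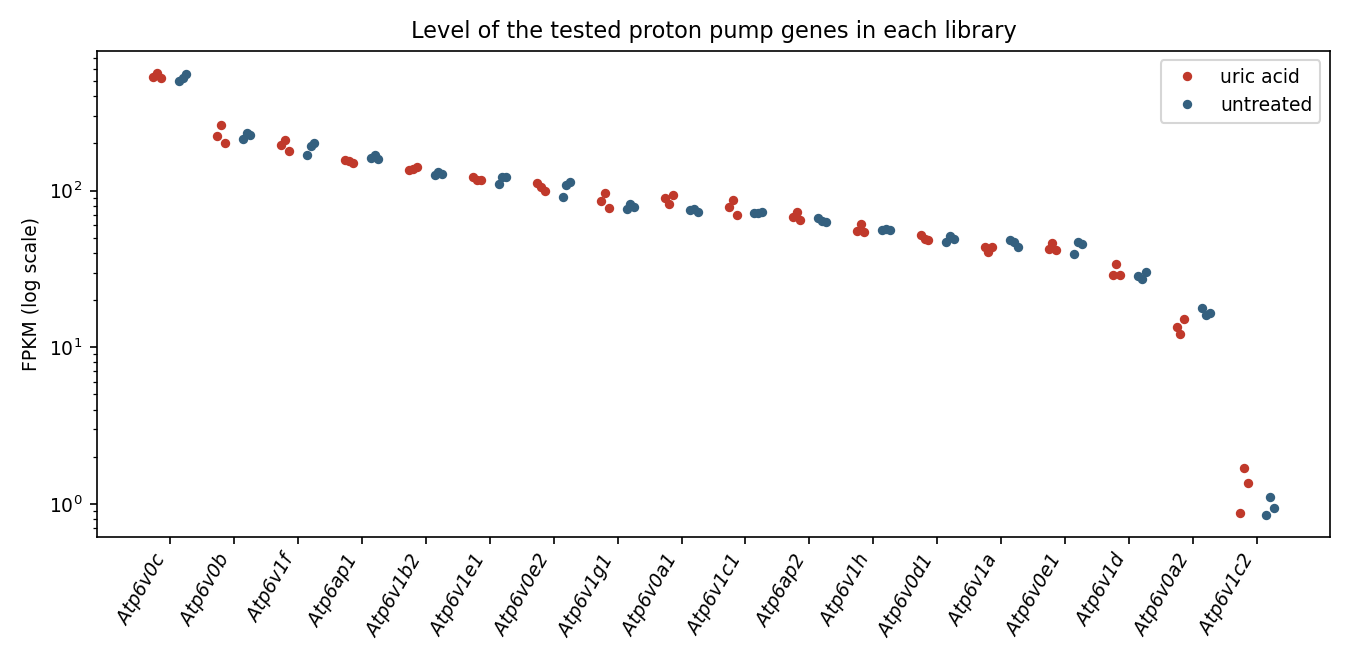
FPKM (log axis) of the 18 tested proton pump genes in every library, ordered by mean level, with uric acid libraries left of untreated libraries. Mean levels run from 534 FPKM for Atp6v0c to about 1 FPKM for Atp6v1c2, and the groups overlap for all but Atp6v1b2, Atp6v0a1, Atp6ap1 and Atp6v0a2.

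Among pump genes, Atp6v0a1 and Atp6v0a2, named for isoforms of the a subunit of V0, came nearest to the threshold. Atp6v0a1 had 89.8, 82.4 and 93.2 FPKM with uric acid and 75.5, 75.8 and 73.4 FPKM untreated (0.24 ± 0.06, adjusted p = 0.0524). Atp6v0a2 had 13.4, 12.2 and 15.2 FPKM with uric acid and 17.7, 16.1 and 16.5 FPKM untreated (-0.30 ± 0.09, adjusted p = 0.0675). The groups were separate for each. DESeq2 called Atp6v0a1 (adjusted p = 0.0186) and Atp6v0a2 (adjusted p = 0.021), and edgeR called Atp6v0a1 without uric acid library 2 (0.0216) and Atp6v0a2 without uric acid library 3 (0.0208). With only features of a mean FPKM of at least 5 tested, edgeR on all 6 libraries called Atp6v0a1 (0.0474) but not Atp6v0a2 (0.0737). In all other alternatives neither was called. Over the alternatives (edgeR, DESeq2 or limma) the adjusted p reached 0.189 for Atp6v0a1 and 0.21 for Atp6v0a2. The feature named Atp6v0a2 (ENSRNOG00000052704) carries the description of Tctn2, a gene of cilia, so how far its values are those of the pump subunit cannot be told apart here. Tcirg1, the a subunit of osteoclasts, and Atp6v0a4, that of kidney, were below 1 FPKM on average in both groups.

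Over the whole list, 72 tested members had a log2 fold change above 0 and 35 below, where all tested features gave 6255 and 6205. The groups were separate upwards for 24 members (22.4%, background 16.8%) and downwards for 9 (8.41%, background 14.2%). The sizes were small: 97 of the 107 had a 95% interval that lay within 0.5 of 0 on the log2 scale. The median member lay 0.07, 0.08 and 0.00 above its untreated mean in uric acid libraries 1, 2 and 3, so the median over all members did not shift in library 3. By role, the median in uric acid library 3 was -0.03 for hydrolases and for pump genes. It was 0.02 for membrane proteins and 0.08 for sorting and adaptor genes. The 19 members left out as low comprised 10 hydrolases, 4 membrane proteins and 5 pump genes, none above 1.23 FPKM in any library, and 10 of them were listed at 0 in at least 1 library. The highest of them was Galns, a sulfatase, at 0.923 FPKM with uric acid and 0.841 FPKM untreated. Cathepsins of immune cells and osteoclasts were among them, with Ctss at 0 FPKM with uric acid and 0.0171 FPKM untreated and Ctsk at 0.196 FPKM with uric acid and 0.243 FPKM untreated. The macrophage marker Cd68 averaged 0.444 FPKM with uric acid and 0.438 FPKM untreated.

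Among other genes of the pathway, taken from lists by symbol that were chosen with earlier results known, 2 of 5 tested transcription factors and nutrient regulators rose and none fell. Over all tested features 4.99% rose, and a count among 5 genes is too small to set a share against it. Flcn, folliculin, which relays amino acid supply to mTORC1 and holds TFEB and TFE3 in the cytosol, had 36.0, 39.3 and 35.3 FPKM with uric acid and 13.5, 15.3 and 15.8 FPKM untreated (1.31 ± 0.08, adjusted p = 0.0001). Every uric acid library lay far above every untreated library (2.48-fold), and the call held in every alternative. Tfe3 had 17.1, 17.1 and 17.2 FPKM with uric acid and 11.9, 14.2 and 11.7 FPKM untreated (0.44 ± 0.10, adjusted p = 0.0272). Its adjusted p was 0.0991 without uric acid library 1, and 0.0979 and 0.0832 without untreated library 1 and 3. Tfeb had 14.5, 15.1 and 13.1 FPKM with uric acid and 17.2, 15.7 and 16.0 FPKM untreated, lower without overlap but not past the threshold (-0.20, adjusted p = 0.181). Mitf, their relative, averaged 0.376 FPKM with uric acid and 0.72 FPKM untreated and was not tested.

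Over all tested features 4.99% rose and 2.99% fell, and a count among 9 tested V-ATPase assembly factors is too small to compare. Of these 9, 1 rose and none fell. This was Ccdc115, which helps to build the pump in the endoplasmic reticulum, at 20.6, 24.3 and 20.6 FPKM with uric acid and 15.4, 16.1 and 15.7 FPKM untreated (0.47 ± 0.09, adjusted p = 0.0176). The groups were well apart, but the adjusted p was 0.0501 without uric acid library 1, and 0.0676, 0.0839 and 0.0543 without untreated library 1, 2 and 3. None of 12 fusion and positioning genes (HOPS, CORVET and small GTPases) and none of 11 other lysosomal channels and carriers was called, with edgeR, DESeq2 or limma, with 2 of each list at an unadjusted p under 0.05, no larger a share than over all features. Their medians were -0.02 and 0.02. Among 8 beta-cell markers, Mafa was the 1 gene called by edgeR, lower at 280, 254 and 313 FPKM with uric acid against 400, 370 and 398 FPKM untreated (-0.46 ± 0.08, adjusted p = 0.0129), with an adjusted p of 0.071 without uric acid library 1 and 0.0564 without untreated library 1. DESeq2 also called Pdx1 (-0.26 in edgeR, DESeq2 adjusted p = 0.0219) and Iapp (-0.27 in edgeR, DESeq2 adjusted p = 0.0337) lower, and edgeR called Pdx1 without uric acid library 3 (0.0405). Of the 8 markers, 6 had a log2 fold change below 0. An unadjusted p under 0.05 was reached by 5, where all tested features gave 25.7%, and not all of these were lower. Slc2a2 was among them and lay higher, without overlap (0.23, edgeR adjusted p = 0.0906). It had 355, 336 and 369 FPKM with uric acid and 295, 281 and 325 FPKM untreated. Over all tested features edgeR called 2.99% lower, and 8 genes are too few to set a share against it.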

How the data were processed

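Polyadenylated RNA of 6 INS-1E libraries was sequenced as paired reads with dUTP in the second strand, per the labels' protocols. Tools in the submitters' processing notes, listed without roles, are HISAT2 2.0.4, StringTie 1.3.4d, cutadapt 1.9, edgeR and DESeq2. The genome build was not given in the sources used here. Deposited FPKM values are the authors' own, scaled to transcript length and library total. The deposited count columns hold estimated counts, rounded here: among 5298 small-RNA values 96.5% equalled aligned bases divided by 75, rounded up, so a full read pair adds up to 4. Members overlap another tested feature in 13 of 107 cases.

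The 12460 features whose FPKM averaged 1 or more (6829 left out) were tested with edgeR 4.0.16 (quasi-likelihood F test, TMM factors 0.992 to 1.009, no covariate, two-sided) in R 4.3.3. Log2 fold changes are uric acid over untreated, with SE and 95% intervals from the F statistic, whose median SE was 0.113 at a common biological coefficient of variation of 0.127. The script was tested on simulated data at the common variation, with 200 of 12460 features changed. It recovered 31.1% of log2 changes of 0.5, 94.4% of those of 1 and 100% of those of 2, with 7 false calls. A gene that was not called is therefore not shown to be unchanged. Alternatives were 3 scalings, 2 filters, DESeq2 1.42.0, limma 3.58.1 with pseudocounts of 1 and 0.1, counts divided by 4, a replicate block, a robust spread and each library left out.

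The members and lists were chosen with earlier results of these data known. Members named are those past the threshold, the 3 most abundant of each role, Lamp1 and Ctsd, the 5 nearest to the threshold, pump genes whose groups do not overlap, the highest member left out as low, Tfeb, Tfe3 and Mitf, and any listed gene called. Others were named after their values were seen. Promoter letters were only described. A hydrolase is counted but not reported here.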

Additional observations from a re-analysis of the deposited data

How the results depend on the processing

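Arsg and Ctns were called in all 17 alternatives. With only features of a mean FPKM of at least 5 tested, 6 members were higher and 0 lower. Those added were Atp6v0a1 (edgeR adjusted p = 0.0474) and Hexa (0.0441), and all features gave 604 higher and 325 lower. The number of members higher (4) and lower (0) was 8 and 2 with DESeq2, which added Ap1s2, Atp6v0a1, Ctsf and Hexa above and Atp6v0a2 and Gga3 below; all features then gave 972 and 793, against 622 and 372. With the replicate number as a block, 2 members were higher (Ctsa at an adjusted p of 0.113 and Npc1 at 0.112 were not), and 223 features were higher and 99 lower. With this block Tfe3 (0.0769) and Ccdc115 (0.0549) were above the threshold too. The labels do not state whether replicate numbers pair the libraries. Same-number correlations of deviations from the group means were 0.0684, -0.0492 and -0.19, and only library 1 with uric acid correlated best with its own number. With 3 libraries per group these values cannot settle whether the libraries are paired. Leaving out single libraries gave 2 to 4 members higher and 0 to 1 lower, and 165 to 707 features higher and 66 to 466 lower; such fits have fewer samples. Values near 0 changed sign. Lamp1 was -0.0026 with RLE scaling and with DESeq2, -0.0087 with upper-quartile scaling, -0.0011 with a mean FPKM above 0, and from -0.024 to 0.045 with 1 library left out. Without uric acid library 2, Ctsd was -0.0052, Atp6v0c -0.0024, Atp6v0b -0.089 and Atp6v1f -0.01, and without untreated library 1 Atp6v0c was -0.0033, Atp6v0b -0.017 and Atp6v1f -0.019. With any 1 library left out, the highest values were 0.12 for Ctsd, 0.088 for Atp6v0c, 0.11 for Atp6v0b and 0.12 for Atp6v1f. The causes were not tested. Members below a mean of 1 FPKM were not tested.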

Other observations

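Features that overlap a lysosome hydrolase on the other strand were called in 2 cases where the hydrolase was not. Vkorc1l1, which overlaps Gusb (beta-glucuronidase), had 3.82, 4.01 and 4.38 FPKM with uric acid and 6.57, 6.44 and 6.63 FPKM untreated, and the groups lay well apart. Its log2 fold change was -0.68 ± 0.14 (edgeR adjusted p = 0.0228), while Gusb stood at 0.05 (adjusted p = 0.719). The adjusted p of Vkorc1l1 was 0.0953 without uric acid library 1, and 0.0753, 0.0938 and 0.067 without untreated library 1, 2 and 3. Prrt1, which overlaps Ppt2 (a thioesterase), had 51.7, 60.6 and 47.4 FPKM with uric acid and 39.6, 36.3 and 43.6 FPKM untreated, again without overlap. Its log2 fold change was 0.42 ± 0.11 (edgeR adjusted p = 0.0469), while Ppt2 stood at 0.15 (adjusted p = 0.479). The adjusted p of Prrt1 was 0.111 and 0.0755 without uric acid library 1 and 2, and 0.132, 0.189 and 0.0552 without untreated library 1, 2 and 3. It was also above the threshold with upper-quartile scaling (0.0527), with every feature of mean FPKM above 0 tested (0.0667) and in limma with pseudocounts of 1 (0.058) and 0.1 (0.0594).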
